A study of Homo sapiens with 8 samples.

Results

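BASP1, WT1, MARCKS and MARCKSL1 were followed by name in RNA-sequencing counts of the line MOLM-13, which was derived from human acute myeloid leukemia and carries a KMT2A fusion. The 4 genes were set by name, with earlier results of these data known. All 4 were among the 13179 genes that passed the filter on low counts, out of 38551 genes with values. The cells received either the diluent DMSO or 100 nM PR-957 (ONX-0914), an inhibitor of the immunoproteasome subunit PSMB8, and were sampled after 72 h, with 4 libraries in each group. Every sample was of this line, so the values describe a single leukemia model.

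BASP1, MARCKS and MARCKSL1 are acidic proteins that carry a myristate at the N-terminus, sit at the inner face of the plasma membrane, and bind the lipid PIP2 and calmodulin. Protein kinase C phosphorylates them, which releases MARCKS from the membrane. BASP1 is also found in the nucleus, where it binds WT1, a zinc finger transcription factor that is often highly expressed in acute myeloid leukemia, and turns WT1 from an activator of its target genes into a repressor. The study reports that BASP1 protein rose in MOLM-13 under PR-957, and proposes that BASP1 represses target genes of KMT2A fusions. The comparison of PR-957 with DMSO here is of transcripts, not protein. It asks how those of BASP1, of its partner and of its relatives responded.

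Total counts per library ran from 16675036 to 23111223. Of 8 marker genes of acute myeloid leukemia with monocytic features, 7 were expressed above the filter, among them SPI1 (158 and 181 CPM, counts scaled to a common library size, in the DMSO and PR-957 groups) and CD33 (37.5 and 38.6 CPM), while the monocyte receptor CD14 had 0 to 12 counts per library. Among markers of other cells, CD3E had 0 counts in all libraries, HBB at most 2 and EPCAM at most 10, and COL1A1 was at 1.27 and 1.14 CPM. Transcripts of the mitochondrial genome held 1.94% to 2.75% of counts in the DMSO libraries and 4.15% to 5.24% in the PR-957 libraries, and the part of this shift in the results was not tested.

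Starts of the transcripts were not measured in these cells, so the promoters of the 4 genes are shown at annotated starts. Each is the RefSeq window on GRCh38.p14 from 250 bases before to 50 bases after the annotated start, written along the strand of the gene. The BASP1 window lies at chr5:17216573-17216872 on the plus strand, that of MARCKS at chr6:113857095-113857394 on the plus strand, that of MARCKSL1 at chr1:32336184-32336483 on the minus strand and that of WT1 at chr11:32435490-32435789 on the minus strand. In the windows of BASP1, MARCKS and MARCKSL1, capitals mark GGGCGG on either strand, the GC box bound by Sp factors. In the window of WT1 they mark the 22 bases that the exons of WT1 share with those of WT1-AS, the antisense gene that starts beside it.
BASP1: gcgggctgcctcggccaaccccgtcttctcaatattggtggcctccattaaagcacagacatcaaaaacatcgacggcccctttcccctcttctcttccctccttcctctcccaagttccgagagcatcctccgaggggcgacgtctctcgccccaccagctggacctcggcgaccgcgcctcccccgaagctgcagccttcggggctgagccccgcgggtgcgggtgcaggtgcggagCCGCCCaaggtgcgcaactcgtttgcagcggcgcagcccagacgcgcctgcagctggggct
MARCKS: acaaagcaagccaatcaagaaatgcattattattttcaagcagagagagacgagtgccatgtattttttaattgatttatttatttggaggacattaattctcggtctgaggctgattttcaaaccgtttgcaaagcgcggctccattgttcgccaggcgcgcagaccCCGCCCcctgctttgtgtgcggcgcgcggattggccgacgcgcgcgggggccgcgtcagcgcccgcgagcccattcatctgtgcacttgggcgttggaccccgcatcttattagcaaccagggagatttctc
MARCKSL1: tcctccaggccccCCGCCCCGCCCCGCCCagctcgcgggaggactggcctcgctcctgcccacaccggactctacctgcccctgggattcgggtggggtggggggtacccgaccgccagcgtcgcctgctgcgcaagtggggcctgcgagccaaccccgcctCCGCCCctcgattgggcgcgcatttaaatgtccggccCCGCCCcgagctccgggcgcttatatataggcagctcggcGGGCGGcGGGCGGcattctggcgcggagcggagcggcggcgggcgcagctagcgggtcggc
WT1: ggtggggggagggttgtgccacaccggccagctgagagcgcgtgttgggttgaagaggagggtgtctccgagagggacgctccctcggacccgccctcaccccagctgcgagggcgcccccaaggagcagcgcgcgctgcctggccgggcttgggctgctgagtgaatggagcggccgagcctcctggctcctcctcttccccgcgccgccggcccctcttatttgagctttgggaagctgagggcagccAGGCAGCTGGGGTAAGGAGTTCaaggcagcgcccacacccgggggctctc

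The windows differed in composition. MARCKSL1 had the highest GC content, 75% with 38 CpG dinucleotides, against 70% and 21 in WT1, 66.7% and 27 in BASP1, and 53.0% and 25 in MARCKS, where the medians of all 35116 windows were 58.7% and 14. GGGCGG occurred 7 times in the window of MARCKSL1, where the 3 most upstream copies overlap by their end bases. It occurred once each in BASP1 (from position -11), MARCKS (from -82) and WT1 (from -160), and 45% of all windows hold it. The sequence TGACNNNGC, the core of the antioxidant response element, occurred once, in MARCKS from position -33, and 13.3% of all windows hold it. None of the 4 windows held GCGGGGGCG (5.07% of all windows), GCGTGGGCG (0.795%) or GCGTGGGAG (0.689%), letters bound by EGR and WT1 zinc fingers. CACGTG (7.26%), GAANNTTC (6.77%) and TGATGCAA (0.866%), found in E-boxes, heat shock elements and amino acid response elements, were not found in them either. Both strands were searched, CACGTG and GAANNTTC read the same on either strand, and GGGCGG can overlap GCGGGGGCG. RefSeq gives WT1 a further 3 windows at downstream starts, which were not distinguished in the counts.

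Transcripts of BASP1, MARCKS and MARCKSL1 were higher under PR-957 and those of WT1 were lower. In the edgeR fit, 3 of the 4 genes were thus higher and 1 was lower at a threshold of 0.05 on the adjusted p, against a background of 46.6% of all 13179 tested genes called in either direction, 23.1% higher and 23.5% lower. In 3 of the 4 the groups did not overlap, which was so for 42.5% of all tested genes. The log2 fold changes stood at percentile 97.7 of all tested genes for MARCKS, 96.8 for BASP1, 90.6 for MARCKSL1 and 23.0 for WT1.

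BASP1 (chromosome 5, 17216823 to 17276845, plus strand) had more transcript under PR-957. In DMSO replicates 1 to 4 it was at 20.9, 16.5, 22.2 and 27.7 CPM, from 334, 296, 368 and 634 counts. In PR-957 replicates 1 to 4 it was at 33.0, 27.7, 47.5 and 60.7 CPM, from 593, 531, 1041 and 1079 counts. The groups touched without overlapping, since the highest DMSO library (27.70 CPM) lay just under the lowest PR-957 library (27.72 CPM). The means were 21.8 ± 4.62 and 42.2 ± 14.9 CPM (SD, n = 4), a log2 fold change of 0.94 (SE 0.30, 95% interval 0.23 to 1.66, adjusted p = 0.0398, edgeR quasi-likelihood test with Benjamini-Hochberg adjustment). In these bulk samples, more transcript per cell and more cells that express a gene cannot be told apart.

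The spread of BASP1 between libraries was wide. Its coefficient of variation was 21.2% with DMSO and 35.2% with PR-957, and its fitted biological coefficient of variation of 0.280 was at percentile 98.8 of the tested genes nearest to it in level. Replicates 3 and 4 lay above replicates 1 and 2 in both groups, and PR-957 exceeded DMSO within either pair: the group means were 18.7 and 30.4 CPM in replicates 1 and 2, a ratio of 1.62, and 24.96 and 54.1 CPM in replicates 3 and 4, a ratio of 2.17. In fits of these pairs alone, the log2 fold changes were 0.70 (edgeR adjusted p = 1.65e-06) and 1.10 (adjusted p = 0.000192). In the fit of all libraries, the call depended on single libraries. BASP1 did not pass the threshold without DMSO replicate 1 (0.92, adjusted p = 0.0907), DMSO replicate 2 (0.83, 0.0932), DMSO replicate 3 (0.95, 0.0823), PR-957 replicate 3 (0.88, 0.0947) or PR-957 replicate 4 (0.72, 0.0662), or with no filter on low counts (0.94, 0.0707), in a range of adjusted p from 2.75e-09 to 0.0947 over 19 alternatives. BASP1 passed in the other 13. Among them were DESeq2 (0.95, adjusted p = 0.00446) and limma-voom (0.89, adjusted p = 0.00295). An edgeR fit with a term for replicates 1 and 2 against 3 and 4 passed as well (0.92, adjusted p = 0.000288). The direction was upwards in all 19.

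MARCKS (chromosome 6, 113857345 to 113863475, plus strand), the myristoylated alanine-rich substrate that gave the family its name, had the largest log2 fold change of the 4 genes. DMSO replicates 1 to 4 held 6.45, 5.01, 8.94 and 7.16 CPM, from 103, 90, 148 and 164 counts. PR-957 replicates 1 to 4 held 10.6, 11.9, 16.1 and 20.2 CPM, from 191, 228, 352 and 359 counts. All PR-957 libraries lay above all DMSO libraries, and as for BASP1 the PR-957 replicates 3 and 4 were the highest. The means were 6.89 ± 1.63 and 14.7 ± 4.33 CPM (SD, n = 4), with a log2 fold change of 1.09 (SE 0.23, 95% interval 0.58 to 1.61, edgeR adjusted p = 0.00329). Replicates 1 and 2 gave a ratio of means of 1.97, and replicates 3 and 4 gave 2.25. The fitted coefficient of variation of 0.215 was at percentile 97.6 of genes of like level. MARCKS passed the threshold in all 19 alternatives, with log2 fold changes from 0.90 to 1.24.

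MARCKSL1 (chromosome 1, 32333839 to 32336233, minus strand), the MARCKS-like protein with the same membrane-binding effector domain, rose by a smaller fold and from a higher level. It was at 71.6, 67.2, 65.6 and 56.2 CPM in DMSO replicates 1 to 4, and at 106, 100.1, 88.8 and 85.0 CPM in PR-957 replicates 1 to 4. The groups did not overlap, and here replicates 3 and 4 were the lower ones in both groups. The means of 65.1 ± 6.47 and 95.05 ± 9.89 CPM (SD, n = 4) gave a log2 fold change of 0.55 (SE 0.08, 95% interval 0.38 to 0.72, edgeR adjusted p = 3.38e-05). Replicates 1 and 2 gave a ratio of means of 1.49, and replicates 3 and 4 gave 1.43. MARCKSL1 passed the threshold in all 19 alternatives (log2 fold changes 0.48 to 0.62), and its coefficients of variation were 9.92% and 10.4%.

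WT1 (chromosome 11, 32387775 to 32435539, minus strand) was the 1 gene of the 4 that fell. DMSO replicates 1 to 4 held 43.4, 50.3, 44.4 and 44.2 CPM, from 693, 904, 736 and 1011 counts. PR-957 replicates 1 to 4 held 37.2, 44.1, 35.9 and 33.3 CPM, from 668, 844, 786 and 593 counts. The groups overlapped, since PR-957 replicate 2 lay above DMSO replicate 1, and replicate 2 was the highest library of either group. The means were 45.6 ± 3.20 and 37.6 ± 4.58 CPM (SD, n = 4), a log2 fold change of -0.28 (SE 0.08, 95% interval -0.44 to -0.11, edgeR adjusted p = 0.00778). The ratio of the means was 0.867 in replicates 1 and 2, where the fit did not pass the threshold (-0.21, adjusted p = 0.0605), and 0.781 in replicates 3 and 4 (-0.36, adjusted p = 0.00686). The fall was past the threshold in the other 18 of 19 alternatives, with adjusted p from 0.000317 to 0.0605 over all of them.

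**Figure D1:**
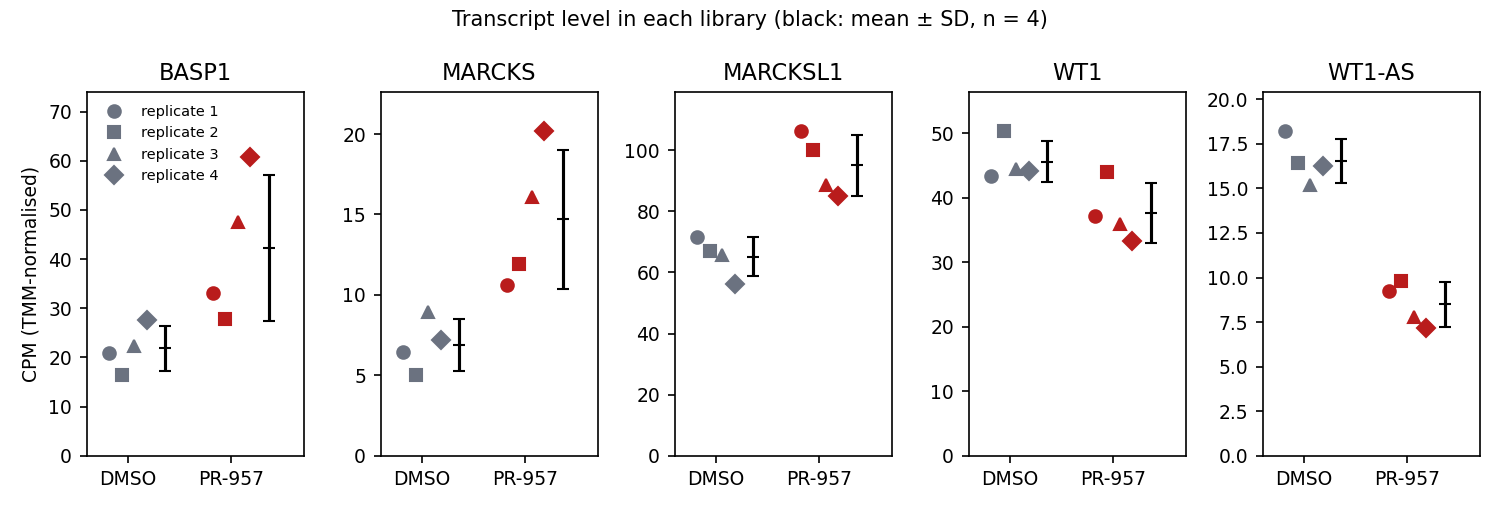
Level of BASP1, MARCKS, MARCKSL1, WT1 and WT1-AS in CPM (vertical axes from 0, each gene with its own range) in the 4 DMSO and 4 PR-957 libraries, with 1 symbol per replicate number and the mean ± SD in black. The PR-957 points lie above all DMSO points for MARCKS and MARCKSL1, touch them for BASP1 (27.70 and 27.72 CPM), overlap them for WT1 and lie below them for WT1-AS.

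**Figure D2:**
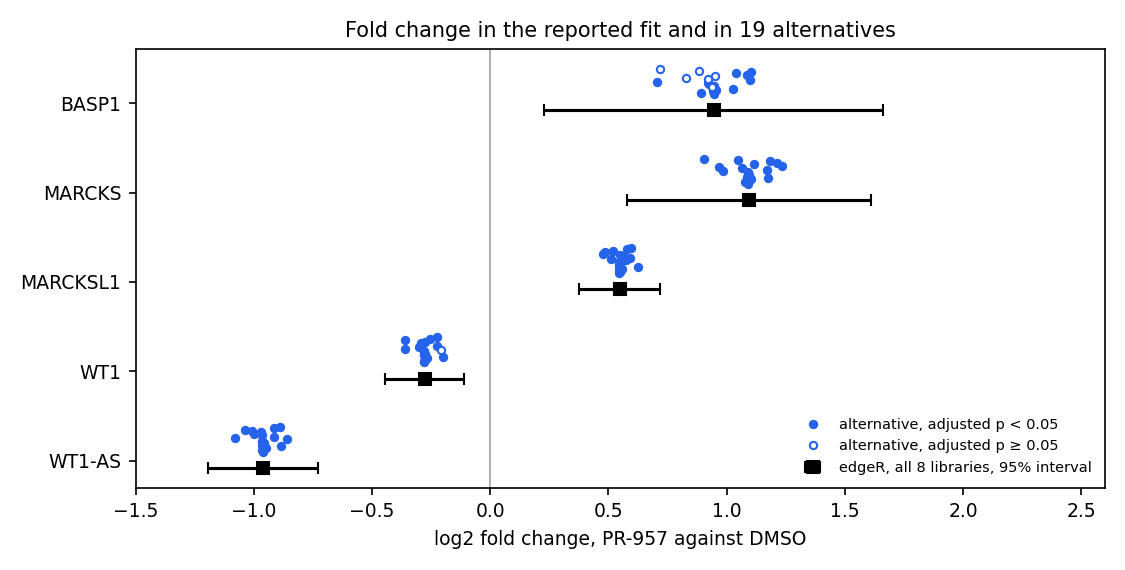
Log2 fold change of PR-957 against DMSO (horizontal axis) for the same genes, with the edgeR value of all 8 libraries and its 95% interval as black squares and 19 alternatives as blue points, open where the adjusted p was at or above 0.05. BASP1 has 6 open points and WT1 has 1, and no point crosses 0.

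WT1-AS (chromosome 11, 32435518 to 32458769, plus strand), a noncoding RNA that runs away from the WT1 start on the opposite strand, fell more than WT1. It was at 18.2, 16.4, 15.2 and 16.3 CPM in DMSO replicates 1 to 4 and at 9.25, 9.81, 7.76 and 7.14 CPM in PR-957 replicates 1 to 4. The groups did not overlap. The means were 16.5 ± 1.25 and 8.49 ± 1.25 CPM (SD, n = 4), with a log2 fold change of -0.96 (SE 0.11, 95% interval -1.19 to -0.73, edgeR adjusted p = 1.02e-06), past the threshold in all 19 alternatives (-1.08 to -0.86). Its promoter window shares 78 bases with that of WT1 (chr11:32435490-32435567), and its exons share the 22 bases shown in capitals above, 0.590% of the exon bases of WT1. Counts were assigned by strand: in 14 single-exon genes that lie inside an exon of a well-expressed gene on the other strand, the median count per base was 0.00574 of that of the gene around them. Within a library, the log2 ratio of WT1-AS to WT1 counts went from -1.46 ± 0.158 to -2.15 ± 0.0982 (SD, n = 4), a difference of -0.69 with no overlap (exact permutation p = 0.0286, two-sided, the smallest that 4 against 4 libraries can give). WT1-AS and this ratio were added after their counts were seen.

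The other relatives were near or at 0. GAP43, the remaining member of the membrane protein family and a growth cone protein of neurons, had 3 counts over the DMSO libraries and 2 over the PR-957 libraries. BASP1-AS1, whose exons share 75 bases with BASP1 on the opposite strand, had 1 and 2 counts. The pseudogene BASP1P1 had 0 counts in all 8 libraries, where 3 counts, the limit that a count of 0 allows, correspond to 0.130 to 0.180 CPM. No change could be tested at this depth for these 3 genes.

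Per kilobase of exon, the order of the levels differed between the groups. In DMSO, MARCKSL1 was highest with 42.1 ± 4.18 CPM per kb (SD, n = 4), followed by WT1 with 12.2 ± 0.859, BASP1 with 11.5 ± 2.44, WT1-AS with 3.85 ± 0.291 and MARCKS with 1.60 ± 0.380. WT1 (11.6 to 13.5) and BASP1 (8.71 to 14.6) overlapped in their libraries, so that their order in DMSO was within the spread. Under PR-957, MARCKSL1 was again highest with 61.5 ± 6.39 CPM per kb, and BASP1 followed with 22.3 ± 7.86. BASP1 (14.6 to 32.1) no longer overlapped WT1 (10.1 ± 1.23, 8.95 to 11.8). MARCKS (3.42 ± 1.01, 2.48 to 4.70) lay above WT1-AS (1.98 ± 0.291, 1.66 to 2.29), which it had been below in DMSO. Among the levels per kilobase of all tested genes, the group mean of BASP1 moved from percentile 68.7 to 81.5, that of MARCKS from 27.3 to 41.3, that of MARCKSL1 from 90.1 to 93.1 and that of WT1 from 69.96 to 65.5.

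**Figure D3:**
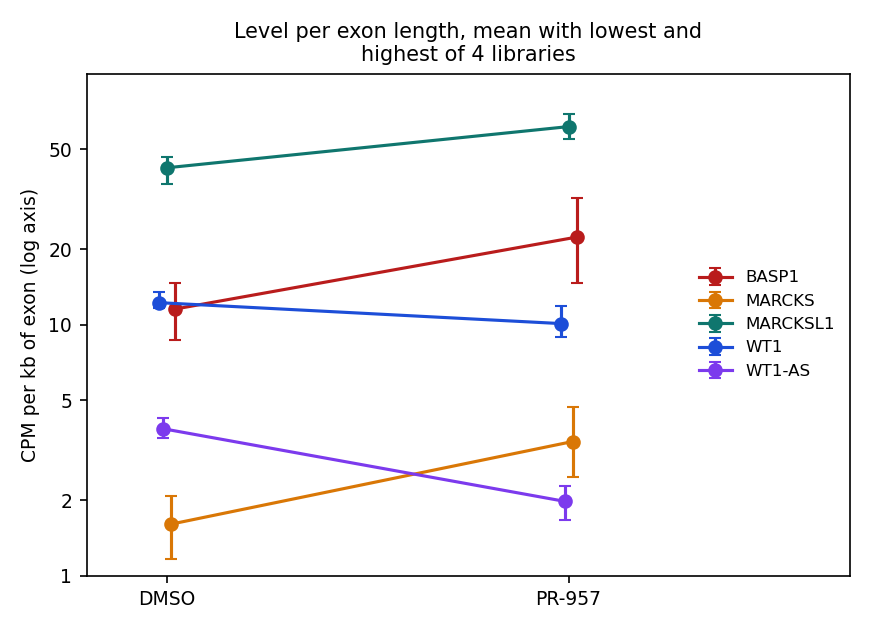
Level per kilobase of exon (CPM per kb, log axis) of the 4 genes and WT1-AS in DMSO and PR-957, with points at the mean of 4 libraries and bars from the lowest to the highest. BASP1 and WT1 start together (11.5 and 12.2) and separate (22.3 and 10.1), and the lines of MARCKS and WT1-AS cross.

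Ratios of counts within a library do not depend on how libraries are scaled, and were used to compare the 4 genes with each other in 6 pairs. The log2 ratio of BASP1 to WT1 was -1.05, -1.61, -0.999 and -0.67 in DMSO replicates 1 to 4 and -0.17, -0.67, 0.41 and 0.86 in PR-957 replicates 1 to 4. WT1 counts exceeded BASP1 counts in all DMSO libraries, and in PR-957 replicates 3 and 4 the reverse held. The means differed by 1.19 (-1.08 ± 0.389 and 0.11 ± 0.668, SD, n = 4), without overlap, since the closest libraries were at -0.673 and -0.668 (exact permutation p = 0.0286, two-sided; 0.0571 adjusted over 6 pairs). The log2 ratio of WT1 to MARCKS differed by -1.36 and that of WT1 to MARCKSL1 by -0.83, both lower under PR-957, again without overlap and with the same exact p of 0.0286 (0.0571 adjusted). No pair passed 0.05 after adjustment, and 4 libraries against 4 cannot give an exact p under 0.0286.

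The ratios among the membrane proteins overlapped between the groups. BASP1 to MARCKS was 1.67 ± 0.263 in DMSO and 1.5 ± 0.190 under PR-957 (log2 ratio, SD, n = 4), a difference of -0.17 (exact permutation p = 0.314; 0.371 adjusted). MARCKS to MARCKSL1 went from -3.26 ± 0.410 to -2.73 ± 0.567, a difference of 0.53 (exact permutation p = 0.2; 0.3 adjusted). BASP1 to MARCKSL1 went from -1.60 ± 0.427 to -1.23 ± 0.647, a difference of 0.36 (exact permutation p = 0.371; 0.371 adjusted). These differences rested in part on single libraries. That of BASP1 to MARCKSL1 was 0.116 without PR-957 replicate 4, 0.221 without DMSO replicate 2, 0.555 without DMSO replicate 4 and 0.571 without PR-957 replicate 2. That of MARCKS to MARCKSL1 was 0.310 without PR-957 replicate 4, and that of BASP1 to MARCKS was -0.072 without PR-957 replicate 2 or DMSO replicate 4 and -0.284 without DMSO replicate 3. Thus the larger fold changes of BASP1 and MARCKS than of MARCKSL1 were not resolved from the spread between libraries in the unpaired test.

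**Figure D4:**
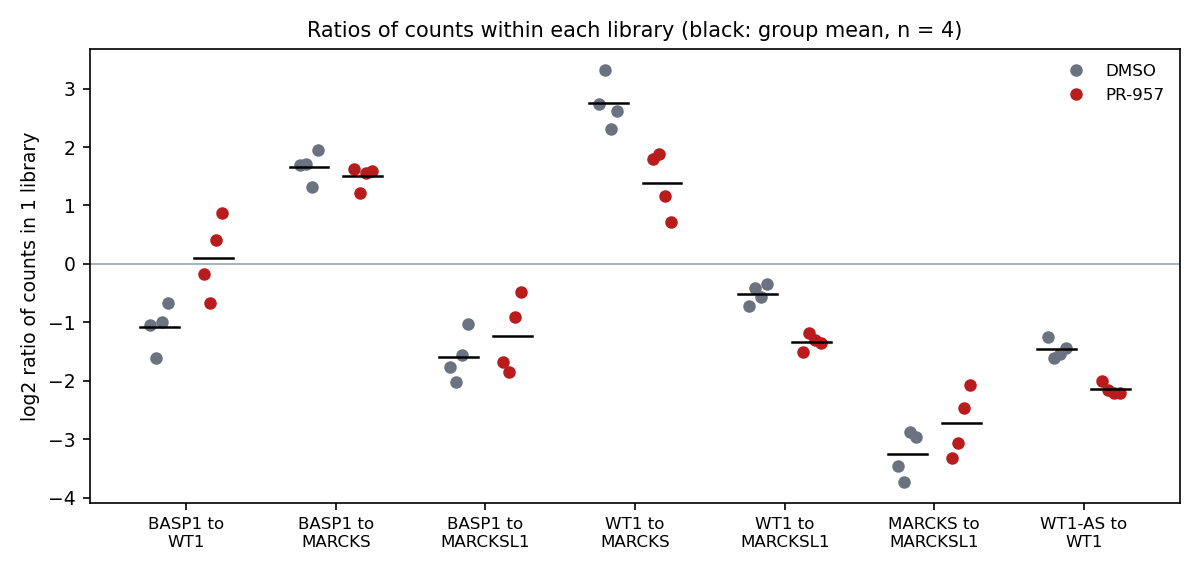
Log2 ratio of raw counts of 2 genes within each library (vertical axis) for the 6 pairs of BASP1, WT1, MARCKS and MARCKSL1 and for WT1-AS to WT1, with 1 point per library and group means as black lines. The DMSO and PR-957 points are apart in the 4 pairs that contain WT1 and overlap in the 3 pairs that do not.

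The nearest tested genes on each side of the 4 loci were looked at next. On chromosome 5, MYO10, an unconventional myosin of filopodia, lies 452426 bases from BASP1. It rose from 10.7 ± 1.99 to 17.8 ± 3.00 CPM (log2 fold change 0.73, edgeR adjusted p = 0.000397). LINC02100, 1454722 bases away on the other side, was low, at 0.730 and 0.734 CPM in the DMSO and PR-957 groups (-0.02, adjusted p = 0.967). On chromosome 11, the neighbours of WT1 on both sides were lower too, as were 23.5% of all tested genes. They lie 282004 bases (RCN1) and 148276 bases (EIF3M) away. RCN1, a calcium-binding protein of the endoplasmic reticulum, fell from 69.7 ± 4.72 to 42.5 ± 0.925 CPM (-0.71, edgeR adjusted p = 2.12e-08), and EIF3M, a subunit of translation initiation factor eIF3, fell by 0.45 on the log2 scale (adjusted p = 4.24e-06). The nearest tested genes of MARCKS were MROCKI, a long noncoding RNA named for its regulation of MARCKS, and FAM229B. MROCKI, 4537 bases away, had a value of 0.28 (edgeR adjusted p = 0.171). FAM229B, 1754554 bases away, had 0.51 (adjusted p = 0.0870). FAM229B passed without DMSO replicate 4 (0.69, edgeR adjusted p = 0.0272) or PR-957 replicate 2 (0.66, adjusted p = 0.0313). HDAC1, which ends 210 bases from the end of MARCKSL1 on the other strand, was at 172 ± 4.80 and 180 ± 7.78 CPM (0.07, edgeR adjusted p = 0.316), and FAM229A on the far side had a value of 0.06 (adjusted p = 0.842).

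Genes whose log2 CPM followed each of the 4 most closely over the 8 libraries were picked among 11270 genes. These values describe the pattern of libraries that mostly differ by treatment, and carry no test. For BASP1 they were UNC13B, a vesicle priming factor (Pearson r = 0.987), NAGK, the kinase of N-acetylglucosamine (0.986), and RALGPS2, an exchange factor of Ral GTPases (0.983), with log2 fold changes of 0.81, 0.26 and 0.99. After the group means were taken out, RRAGD, a Rag GTPase of the amino acid pathway to mTORC1 (r = 0.984), IFI16, an interferon-inducible DNA sensor (0.977), and AMT, an enzyme of glycine cleavage (0.976), followed BASP1 most closely within the groups. Of these, IFI16 and AMT were lower under PR-957, with log2 fold changes of -0.68 (edgeR adjusted p = 0.00255) and -0.52 (adjusted p = 0.00106), while RRAGD had a value of 0.41 (adjusted p = 0.0672) and passed in 10 of 19 alternatives, among them those without DMSO replicate 4 (0.50, adjusted p = 0.0344) and without PR-957 replicate 2 (0.51, adjusted p = 0.0144).

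MARCKS was followed by APBB2 (r = 0.993), SLCO3A1 (0.985) and IGSF10 (0.984), with log2 fold changes of 0.98, 0.50 and 1.04. MARCKSL1 was followed by CCAR2 (0.991), DNAJC9, a histone chaperone (0.991), and ABCF3 (0.989), with 0.26, 0.45 and 0.20. WT1 was followed by DACH1, a transcriptional cofactor (0.993), VPS4B, an ATPase of the ESCRT machinery (0.990), and SHOC2, a scaffold of RAS signaling (0.974), with -0.31, -0.31 and -0.23. All of these passed the threshold with all libraries. In a fit of replicates 1 and 2 alone NAGK (0.21, edgeR adjusted p = 0.0775) and SHOC2 (-0.17, adjusted p = 0.0521) did not, and in a fit of replicates 3 and 4 alone ABCF3 did not (0.17, adjusted p = 0.145).

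Gene families with members described to act with BASP1 at promoters changed in both directions. Whether every gene listed acts with BASP1 was not tested. Of 8 prohibitins, class I histone deacetylases and SWI/SNF ATPases, 3 were higher and 3 lower, with a median log2 fold change of 0.08 against 0.0030 over all tested genes. Among all tested genes, 23.1% were higher and 23.5% lower. PHB, prohibitin 1, which binds BASP1 in the nucleus, rose from 213 ± 14.2 to 299 ± 10.1 CPM (0.49, edgeR adjusted p = 9.36e-07), whereas its partner PHB2 fell by 0.18 on the log2 scale (adjusted p = 0.0103). HDAC8 (0.44, adjusted p = 0.00138) and HDAC3 (0.20, adjusted p = 0.00626) rose, and SMARCA2, an ATPase of chromatin remodeling, fell by 0.22 on the log2 scale (adjusted p = 0.00165). HDAC2 fell by 0.17 on the log2 scale (adjusted p = 0.00953). HDAC1, the deacetylase that BASP1 recruits, and SMARCA4 had values of 0.07 and 0.09 and did not pass, but passed with libraries scaled by their totals (0.14, adjusted p = 0.0243, and 0.17, adjusted p = 0.0172). PHB2 (-0.10, adjusted p = 0.0833) and HDAC2 (-0.09, adjusted p = 0.103) did not pass with that scaling, nor did PHB2, HDAC2 and HDAC3 in replicates 3 and 4 (-0.20, -0.16 and 0.14, adjusted p = 0.0573, 0.101 and 0.195).

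Of the 4 enzymes of N-myristoylation, which prepare and attach the lipid that BASP1, MARCKS and MARCKSL1 carry, none was higher and 2 were lower, with a median of -0.15. The shares of all tested genes were 23.1% higher and 23.5% lower. METAP2, which removes the initiator methionine, went from 465 to 394 CPM (-0.24, edgeR adjusted p = 0.00185; -0.17 and 0.0859 in replicates 3 and 4). METAP1 had -0.16 (adjusted p = 0.0339), and lost its call without any of DMSO replicates 1, 2 and 3 or PR-957 replicates 3 and 4 (-0.16 to -0.13, adjusted p 0.0537 to 0.118). It did not pass with library totals either (-0.08, adjusted p = 0.245). The transferases NMT1 (0.01) and NMT2 (-0.15) did not pass.

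Of 14 tested genes of protein kinase C, calmodulin and PIP2 kinases, which act on the membrane-binding domain of these proteins or on its lipid, 5 were higher and 2 lower, with a median of 0.06. Over all tested genes, 23.1% were higher and 23.5% lower. PRKCD, the kinase isoform delta, rose from 123 ± 1.53 to 161 ± 3.29 CPM (0.39, edgeR adjusted p = 3.38e-06), and PRKCQ, the isoform theta, fell by 0.53 on the log2 scale (adjusted p = 0.00169). PIP5K1B, a kinase that makes PIP2, rose from 0.726 ± 0.329 to 1.72 ± 0.480 CPM (1.21, edgeR adjusted p = 0.00542), a low level in either group. CALM3, a calmodulin gene, rose by 0.30 (adjusted p = 0.000212; 0.19 and 0.0531 in replicates 3 and 4). PRKCA had -0.27 (adjusted p = 0.0144), which did not pass without PR-957 replicate 3 (-0.23, adjusted p = 0.0564), when libraries were scaled by totals (-0.19, adjusted p = 0.0825) or in replicates 1 and 2 (-0.18, adjusted p = 0.175).

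Of 7 partners of WT1, 1 was higher and 4 were lower, with a median of -0.13, against 23.1% higher and 23.5% lower among all tested genes. PAWR, a pro-apoptotic binder of WT1, fell by 0.53 on the log2 scale (edgeR adjusted p = 0.00382) and SP1, the GC box factor, by 0.32 (adjusted p = 0.000751), while CIAO1 rose by 0.18 (adjusted p = 0.00932). PAWR did not pass in replicates 3 and 4 (-0.28, adjusted p = 0.265) and CIAO1 did not in replicates 1 and 2 (0.10, adjusted p = 0.236). TET3 (-0.15, adjusted p = 0.0499) and WTAP (-0.13, adjusted p = 0.0438) were close to the threshold. TET3 did not pass without any of DMSO replicates 1, 2 and 3 or PR-957 replicates 1, 3 and 4 (-0.16 to -0.12, adjusted p 0.0632 to 0.136), and WTAP did not without any of DMSO replicates 1, 2 and 3 or PR-957 replicates 1, 2 and 3 (-0.14 to -0.11, adjusted p 0.0573 to 0.112). With library totals neither passed (TET3 -0.07, adjusted p = 0.362; WTAP -0.05, adjusted p = 0.422), nor did they with no filter on low counts (adjusted p = 0.0819 and 0.0953) or in either pair of replicates. TET3 also missed the threshold with DESeq2 (adjusted p = 0.0686), limma-voom (0.0506), upper-quartile scaling (0.0614) and the filter of 1 CPM (0.0504), and so in 14 of 19 alternatives. The number of partners past the threshold was 3 when any of DMSO replicates 1, 2 and 3 and PR-957 replicates 1 and 3 was left out, against 5 with all libraries.

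The EGR factors bind sequences much like those of WT1. EGR2 was at 26, 11, 21 and 119 counts in DMSO replicates 1 to 4 and at 3, 0, 0 and 3 counts in PR-957 replicates 1 to 4. It fell in the fit of all libraries (log2 fold change -4.73, edgeR adjusted p = 0.00765), and by less without DMSO replicate 4, which held most of the counts (-3.77, adjusted p = 5.70e-05), and it did not pass in replicates 3 and 4 (-5.35, adjusted p = 0.0539). EGR3 fell likewise (-5.31, edgeR adjusted p = 0.000212; -4.68 without DMSO replicate 4). EGR1 was at 16.1 ± 6.30 and 11.1 ± 7.63 CPM (-0.56, edgeR adjusted p = 0.414), with replicate 4 the highest library of either group (24.8 and 22.4 CPM). It passed without PR-957 replicate 4 (-1.15, edgeR adjusted p = 0.0396) and in replicates 1 and 2 (-0.996, adjusted p = 5.83e-06). EGR4 had 0 to 4 counts per library and was not tested.

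Of 14 genes described as WT1 targets, 10 were tested, and 1 was higher and 6 lower, with a median of -0.35. All tested genes were 23.1% higher and 23.5% lower by the same threshold. BCL2, the inhibitor of apoptosis, went from 130 ± 8.51 to 66.1 ± 4.32 CPM. PDGFA, a growth factor, fell from 18.6 ± 2.50 to 10.0 ± 1.28 CPM (-0.89, edgeR adjusted p = 2.80e-06). MYC (-0.57, edgeR adjusted p = 3.37e-07) and the cell cycle inhibitor CDKN1A (-0.42, adjusted p = 0.000143) were also lower, as was JUNB (-0.27, adjusted p = 0.00403), and VDR, the vitamin D receptor, was higher (0.38, adjusted p = 0.000284). ETS1 had -0.29 (adjusted p = 0.0377), and did not pass without any of DMSO replicates 3 and 4 and PR-957 replicates 1, 2 and 4 (-0.29 to -0.20, adjusted p 0.0800 to 0.110), nor with library totals (-0.21, adjusted p = 0.157), upper-quartile scaling (-0.28, adjusted p = 0.0556) or in replicates 1 and 2 (-0.18, adjusted p = 0.141). AREG, IGF2, PAX2 and EGFR had 0 to 4 counts per library and were not tested. The share of each list that passed is to be read against the 46.6% of all tested genes: 6 of 8, 2 of 4, 7 of 14, 5 of 7, 2 of 3 and 7 of 10 in the order given.

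**Figure D5:**
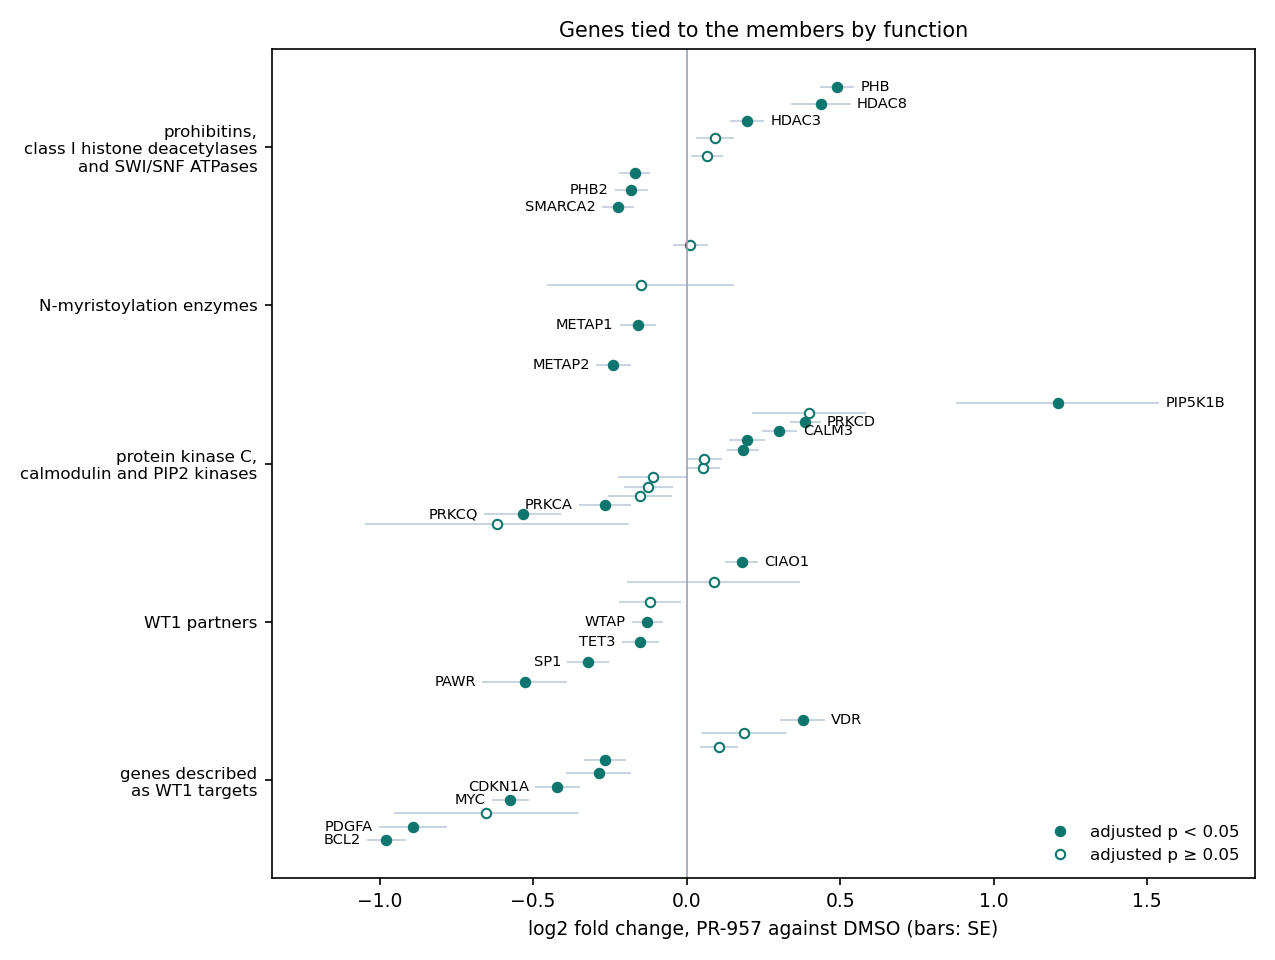
Log2 fold change of PR-957 against DMSO (horizontal axis, bars: SE) for the tested genes of 5 lists tied to BASP1, the MARCKS proteins and WT1, filled where the edgeR adjusted p was under 0.05. PIP5K1B (1.21) is the farthest to the right and BCL2 (-0.98) the farthest to the left; the EGR factors, down to -5.31, are not drawn.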

How the data were processed

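RNA-sequencing libraries of MOLM-13 cells, 4 given DMSO and 4 given 100 nM PR-957 for 72 h, entered the analysis, with groups and replicate numbers from the sample titles. Per the submitters' processing notes and the study's methods, the authors trimmed reads with Trimmomatic 0.39 and aligned them to hg38 with STAR 2.7.10a. Per the file headers, fragments were counted by featureCounts 2.0.1 on the reverse strand against NCBI RefSeq genes, with both ends mapped. The deposited values were raw counts per gene, not normalized by the authors. The counting command named 16 libraries, of which the table held 8; the other 8 were not analysed here. Rows without values (6) were left out, 3 gene names looked like dates, and 14724 genes had 0 counts throughout. A further table of the authors' own comparison (DESeq2 fold changes and p-values) was not used.

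The effect of PR-957 was tested in R 4.3.3 with edgeR 4.0.16 (quasi-likelihood, robust, two-sided, no covariate, TMM scaling, filterByExpr), with Benjamini-Hochberg adjustment over all genes tested and a threshold of 0.05. SE was computed as the size of the log2 fold change over the square root of F. CPM were TMM-normalised. Ratios within a library used counts plus 0.5 and exact permutation tests (all 70 ways to split 8 libraries into 4 and 4). Lengths for CPM per kb were the exon bases of each gene in the table. Promoter windows came from RefSeq and were found for all 4 genes and WT1-AS. The fit was tested on simulated data.

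The genes and lists were chosen with earlier results of these data known. Named genes were the 4 genes, their relatives, in each list the genes past the threshold (at most the 5 largest changes), the nearest tested gene on each side, and the 3 genes most alike in pattern with an average log2 CPM of at least 1. HDAC2, JUNB, ETS1 and the genes that did not pass were named after their values were seen. Alternatives were DESeq2 1.42.0, limma-voom (limma 3.58.1), RLE, upper-quartile and library-total scaling, no filter, a minimum of 1 CPM in 4 libraries, a replicate block, a term for replicates 1 and 2 against 3 and 4, either pair alone, and each library left out. For the ratios, the pseudocounts 0 and 5, the replicate numbers, either pair and each library left out were used.

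Nothing in the labels says that the replicates were separate cultures, so p-values measure the spread between these samples, which may be technical. The floor of 3 counts reflects counting error alone, because fragments copied by PCR do not count molecules independently.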

Additional observations from a re-analysis of the deposited data

Results flagged for a closer look

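In 10 of 116 combinations of 58 genes with the 2 groups, the highest or lowest of 4 libraries lay far from the other 3 by Dixon's criterion, where chance alone gives about 1 in 20. WT1 was at 50.3 CPM in DMSO replicate 2, against a median of 44.2 CPM in the other DMSO libraries, and without that library its log2 fold change was -0.23 (edgeR adjusted p = 0.0355). EGR1 was at 22.4 CPM in PR-957 replicate 4, against 6.74 CPM in the other PR-957 libraries. BCL2 was at 72.5 CPM in PR-957 replicate 2, against 63.6 CPM. PRKCA was at 24.1 CPM in PR-957 replicate 2, against 19.4 CPM, and PRKCQ was at 5.68 CPM in PR-957 replicate 4, against 6.67 CPM. PHB2 was at 328 CPM in PR-957 replicate 4, against 361 CPM. In the DMSO group, PRKCB was at 116 CPM in replicate 3 against 123 CPM in the others, CALM3 at 186 CPM in replicate 2 against 207 CPM, CALM2 at 389 CPM in replicate 4 against 440 CPM, and TET2 at 18.3 CPM in replicate 4 against 14.5 CPM. No library of BASP1, MARCKS or MARCKSL1 met this criterion.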

How the results depend on the processing

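MARCKS and MARCKSL1 kept their direction and stayed past the threshold in all 19 alternatives. BASP1 kept its direction in 19 and did not pass in 6: with no filter on low counts (0.94) and in 5 of the 8 fits without 1 library (0.72 to 1.10 over all 8). WT1 did not pass in replicates 1 and 2 only (-0.21). Scaling moved the median log2 fold change of all genes by under 0.1 (0.0807 with library totals alone, 0.0030 with TMM). The number of genes called ran from 4681 to 6913. The count of the 8 prohibitins, deacetylases and ATPases was 3 in replicates 3 and 4 only (6 with all libraries). That of the N-myristoylation enzymes was 1 with library totals alone, 1 for replicates 1 and 2, 0 for replicates 3 and 4, and 1 to 2 without 1 library (2 with all). That of protein kinase C, calmodulin and PIP2 kinases was 4 in replicates 1 and 2 only (7 with all). That of the WT1 partners was 3 with library totals alone, 3 with no filter, 2 for replicates 1 and 2, 2 for replicates 3 and 4, and 3 to 5 without 1 library (5 with all). That of the EGR factors was 1 with a filter of at least 1 CPM and 1 in replicates 3 and 4 only (2 with all). Fits of a pair of replicates hold fewer samples; otherwise the cause was not tested. Of the neighbours, LINC02100 changed sign with limma-voom (0.030), library totals alone (0.055), the replicate block (0.016) and the fit of replicates 3 and 4 (0.051), and ran from -0.19 to 0.22 without 1 library. FAM229A changed sign in replicates 1 and 2 only (-0.084) and ran from -0.089 to 0.25 without 1 library. NMT1 changed sign in replicates 1 and 2 only (-0.040) and ran from -0.017 to 0.048 without 1 library, over which NMT2 ran from -0.36 to 0.026. CSF1R changed sign in replicates 3 and 4 only (-0.070). None of these was past the threshold where its sign changed. The differences in ratio kept their direction in all 13 alternatives for each of the 6 pairs, of which only the 2 other pseudocounts and the sign-flip test gave a p; no pair passed 0.05 in these after adjustment, which the sign-flip test cannot reach.

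Groups shared replicate numbers in the labels. The deviations of same-numbered libraries from their group means correlated at 0.151, 0.213, 0.0985 and 0.198 for numbers 1 to 4. Each was above the highest correlation of that DMSO library with a PR-957 library of another number (0.114, 0.0737, 0.0905 and 0.105). The reported fit was left unpaired because number 3 was not above 0.1, so any shift shared by number stayed in its spread. Between the groups, deviations correlated at 0.0737 to 0.213 within numbers 1 and 2 and at 0.0905 to 0.198 within numbers 3 and 4. Those of 1 or 2 with 3 or 4 correlated at -0.187 to -0.0411. The reported fit held no term for this shift. With such a term, 6668 genes were called. With the replicate number as a block, the log2 fold changes were 0.93 for BASP1 (adjusted p = 2.75e-09), 1.09 for MARCKS, 0.54 for MARCKSL1 and -0.28 for WT1, and 6913 genes were called. EGR1 passed with the block (-0.61, adjusted p = 0.00599). In an exact sign-flip test by replicate number, the smallest possible p was 0.125. This value was reached by WT1-AS to WT1 and, before adjustment, by all of the 6 pairs except BASP1 to MARCKS (0.15 adjusted; 0.375 for BASP1 to MARCKS). BASP1 to MARCKSL1 and MARCKS to MARCKSL1 were thus higher under PR-957 within each replicate number.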

Other observations

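Of the surface and lineage genes used to check the cell line, 4 of the 7 that were tested passed the threshold, near the 46.6% of all tested genes. The receptor tyrosine kinase FLT3 had the largest change of them, from 340.4 to 173 CPM in the means (log2 fold change -0.98, edgeR adjusted p = 1.10e-09). PTPRC, the CD45 phosphatase of leukocytes, fell from 207 ± 23.1 to 131 ± 9.81 CPM (log2 fold change -0.66, edgeR adjusted p = 1.43e-06) and CD4, also found on monocytic cells, from 183 ± 11.5 to 156 ± 1.81 CPM (-0.23, adjusted p = 0.00162). SPI1, the myeloid transcription factor PU.1, rose from 158 ± 8.24 to 181 ± 8.04 CPM (0.20, edgeR adjusted p = 0.00607). CD33 (0.04), ITGAM (0.22) and CSF1R (0.34) did not pass the threshold with all libraries. Without DMSO replicate 4, ITGAM (0.47, edgeR adjusted p = 2.42e-05) and CSF1R (0.64, adjusted p = 0.00234) did, as they did in replicates 1 and 2 alone (0.45, adjusted p = 0.000354, and 0.86, adjusted p = 0.000563). The list held 8 genes, chosen with earlier results of these data known, and of those tested 1 was higher and 3 were lower, with a median log2 fold change of 0.04.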
